A study of Homo sapiens with 6 samples.

Results

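The interferon-induced transmembrane genes *IFITM1*, *IFITM2*, *IFITM3* and *IFITM10* and *BST2*, which encodes tetherin, are described here in SW480 cells with and without MDM4 plasmids. They are 5 of the 19225 genes listed. They were chosen by name, from earlier comparisons of the same MDM4 and control libraries in which some of them differed, so their values between these groups are given as a description with no test. All 5 passed the filter of a mean of at least 0.5 FPKM (a read level corrected for gene length and for library size), as did 12884 genes in all.

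SW480 is an established line of colon cancer cells, labelled as tumor cells with mutant p53. mRNA was sequenced from 3 control libraries and 3 libraries of cells transiently transfected with plasmids encoding MDM4, a protein that binds and inhibits p53, and each library is numbered as replicate 1, 2 or 3 of its group. The labels name plasmid transfection for both groups, call the MDM4 group "exercised", and do not say which plasmid the controls received. Nothing says that the replicates are separate cultures, so the spread between them may be technical. A transient transfection reaches some cells and not others, and each value is an average over both. In such bulk RNA, fewer cells that express a gene and less of its RNA per cell cannot be told apart.

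Each library had between 32923184 and 44563621 reads on genes. *MDM4* was at 6.35, 7.09 and 5.13 FPKM over control replicates 1 to 3 and at 188, 185 and 56.3 FPKM over MDM4 replicates 1 to 3. It was thus higher in every MDM4 library, and least so in replicate 3. Of the epithelial markers 7 of 8 were past the filter. The summed level of the 8 was 4221 to 4902 FPKM, most of it from *KRT8*, *KRT18* and *KRT19*, keratins of simple epithelia. *KRT20* was below the filter, at 0.198 to 0.591 FPKM over the 6 libraries. The villin gene *VIL1* was at 1.88 to 4.08 FPKM, and *CDX2*, an intestinal transcription factor, at 9.99 to 14.2 FPKM. Markers of epithelium were thus present. Immune cell markers summed to 8.27 to 9.13 FPKM in the control group and 8.79 to 9.04 FPKM in the MDM4 group, and 3 of 10 were past the filter. These were *CD68*, a lysosomal protein of macrophages (4.26 to 5.01 FPKM over the 6 libraries), *HLA-DRA*, an MHC class II chain (2.29 to 3.15 FPKM), and *CD14*, a monocyte receptor (0.308 to 0.813 FPKM), while *PTPRC*, which marks all leukocytes, was at most at 0.0142 FPKM and *MS4A1* at 0 in all 6. Their log2 differences, MDM4 minus control, were 0.03 for *CD68*, 0.08 for *HLA-DRA* and -0.30 for *CD14*. Markers of fibroblasts and endothelial cells summed to 2.01 to 4.42 FPKM in the control group and 2.20 to 4.50 FPKM in the MDM4 group, and only *COL1A1* of 9 was past the filter.

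IFITM proteins are small membrane proteins that keep enveloped viruses from fusing with the cell. IFITM1 lies mainly at the cell surface, and IFITM2 and IFITM3 mainly at endosomes and lysosomes. Tetherin acts at the other end of infection: it is held in the membrane by a transmembrane segment at one end and a glycosylphosphatidylinositol (GPI) anchor at the other, and it holds budding virus particles on the cell that made them. *IFITM1*, *IFITM2*, *IFITM3* and *BST2* are well-known interferon-stimulated genes, whereas *IFITM10* is a distant relative that is not known as one. Type I and III interferons act through a transcription factor complex that holds STAT2 and IRF9 and binds an element built on repeats of GAAA in the promoters of such genes.

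In GENCODE release 29 on GRCh38, *IFITM2* (307631 to 315272), *IFITM1* (313506 to 315272) and *IFITM3* (319669 to 327537) lie together on chromosome 11. The first pair is on the plus and *IFITM3* on the minus strand. The annotated span of *IFITM1* lies inside that of *IFITM2*, and both end at the same base. The region from the start of *IFITM5*, the bone member of the family, to the end of *IFITM3* spans 29338 bases. *IFITM10* (1732410 to 1750591, minus strand) lies 1404872 bases beyond the end of *IFITM3*. *BST2* is on chromosome 19 from 17402939 to 17405648 on the minus strand. The main transcripts of *IFITM1*, *IFITM2* and *IFITM3* have 2 exons each and code for 125, 132 and 133 amino acids. That of *BST2* has 5 exons and codes for 180, and that of *IFITM10* has 3 exons and codes for 228.

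The coding sequences of *IFITM1*, *IFITM2* and *IFITM3* are much alike, which bears on how reads can be divided among them. *IFITM2* and *IFITM3* were identical at 94.0% of 399 aligned bases, *IFITM1* and *IFITM3* at 88.2% of 331, and *IFITM1* and *IFITM2* at 85.8% of 331, against 59.3% to 63.7% for every pair with *IFITM5* or *IFITM10*. The next stretch of 90 bases is the same in all of *IFITM1*, *IFITM2* and *IFITM3*, and a read inside it cannot be assigned to 1 of them. It spans the junction of exons 1 and 2, at chr11:314345-314999 on the plus strand in *IFITM1*, chr11:308427-309090 on the plus strand in *IFITM2* and chr11:319913-320576 on the minus strand in *IFITM3*, intron included.
IFITM1, IFITM2 and IFITM3: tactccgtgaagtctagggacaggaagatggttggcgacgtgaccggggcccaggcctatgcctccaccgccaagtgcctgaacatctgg

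Among coding stretches of the same length that align without a gap in the 3 genes, the one in which they differ most is in exon 1. It begins at coding base 1 in *IFITM1*, 61 in *IFITM2* and 64 in *IFITM3*, so the earlier coding bases of *IFITM2* and *IFITM3* were not compared. It is shown with capitals at the 21 positions where the 3 genes are not all alike, from *IFITM1* (chr11:314171-314260, plus strand), *IFITM2* (chr11:308253-308342, plus strand) and *IFITM3* (chr11:320661-320750, minus strand). *IFITM1* differs from *IFITM3* at 18 of these positions and *IFITM2* differs from it at 5.
IFITM1: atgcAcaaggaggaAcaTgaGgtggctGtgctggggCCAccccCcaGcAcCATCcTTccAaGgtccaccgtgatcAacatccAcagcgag
IFITM2: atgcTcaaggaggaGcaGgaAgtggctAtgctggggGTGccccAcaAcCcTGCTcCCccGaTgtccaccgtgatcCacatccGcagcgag
IFITM3: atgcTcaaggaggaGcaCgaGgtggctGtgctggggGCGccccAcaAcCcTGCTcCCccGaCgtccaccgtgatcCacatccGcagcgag

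How the authors treated reads that match more than 1 gene is not given in the sources used here. Of all windows of 50 bases in the main transcript, 12.2% in *IFITM1*, 10.4% in *IFITM2* and 17.9% in *IFITM3* also occur in the main transcript of a relative, and 0 do in *IFITM10* and *BST2*. With any other annotated gene and all its transcripts, the shares were 42.3% in *IFITM1*, 15.8% in *IFITM2*, 20.3% in *IFITM3*, 27.8% in *IFITM10* and 0% in *BST2*. For windows of 100 bases they were 37.7%, 0%, 5.92%, 26.8% and 0% in the same order. The 0% of *IFITM2* holds for its main transcript only, as 264 such windows of *IFITM1* and 21 of *IFITM3* occur in other *IFITM2* transcripts. Among these, 351 exon bases of *IFITM1* are annotated as *IFITM2* too, through a longer *IFITM2* transcript, and 1062 exon bases of *IFITM10* belong also to AC068580.4 on the same strand. The deposited FPKM imply lengths of 717, 730 and 668 bases for *IFITM1*, *IFITM2* and *IFITM3*, against 855, 892 and 808 in these main transcripts. For *BST2* both are 1019. The shares thus describe GENCODE transcripts, and the gene models behind the deposited values are not known. The division of reads among the IFITM genes is therefore uncertain, while *BST2* shares no such window with any other gene.

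Promoters were taken from RefSeq (GRCh38.p14, 250 bases before to 50 after each start), where entries for *IFITM1*, *IFITM3* and *BST2* were matched among the 5 genes. They were searched on both strands for the core of the interferon-stimulated response element, GAAANNGAAA, and the stretches that hold it are shown with the matches in capitals. They are chr11:313940-314043 on the plus strand for *IFITM1*, chr11:320861-320960 on the minus strand for *IFITM3* and chr19:17405691-17405790 on the minus strand for *BST2*.
IFITM1: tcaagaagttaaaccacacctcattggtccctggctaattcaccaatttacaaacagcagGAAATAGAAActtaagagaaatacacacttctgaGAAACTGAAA
IFITM3: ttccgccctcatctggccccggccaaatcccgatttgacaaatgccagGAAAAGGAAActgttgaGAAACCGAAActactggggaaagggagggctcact
BST2: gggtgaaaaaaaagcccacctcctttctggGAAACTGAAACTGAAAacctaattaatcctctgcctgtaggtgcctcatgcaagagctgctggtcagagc

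Each of these promoters holds the motif at 2 places, always on the strand of the gene, and in *BST2* the matches overlap. Of all 35116 promoters in the table, 1255 (3.57%) hold it. Counted from the RefSeq start, the matches begin at -40 and -6 in *IFITM1*, -52 and -35 in *IFITM3*, and -130 and -124 in *BST2*. The motif TTCNNNGAA, the core of the gamma-activated sequence, is found in 7.66% of promoters. It begins at -12 in *IFITM1*, where it overlaps the response element, and at -136 and -58 in *BST2*, the first of which also overlaps it, and these letters are not in the window of *IFITM3*. A match is a string of letters and not a measured binding site.

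Among the 5 genes, *IFITM3* was the most abundant and *IFITM10* by far the least. FPKM is a level per length, so that genes can be compared within a library. The control mean was 276 ± 52.0 FPKM for *IFITM3*, 130.2 ± 13.0 for *IFITM2*, 76.0 ± 28.5 for *IFITM1*, 64.8 ± 19.1 for *BST2* and 0.900 ± 0.428 for *IFITM10* (SD, n = 3). The control means of *IFITM1* and *BST2*, neighbours in this order, differed by less than their SD between libraries. *IFITM3* lay above 97.8% to 99.0% of the detected genes of a library and *IFITM2* above 95.9% to 97.6%. *IFITM1* lay above 88.6% to 95.6% in the control group and 71.1% to 87.3% in the MDM4 group, and *IFITM10* above 20.6% to 27.2% in all 6. With MDM4, the mean was 171 ± 23.7 FPKM for *IFITM3*, 113.8 ± 20.4 for *IFITM2*, 28.8 ± 8.75 for *BST2* and 24.8 ± 11.8 for *IFITM1* (SD, n = 3). *BST2* thus stood above *IFITM1* in the MDM4 means and below it in the control means, in both cases by less than the SD between libraries. Within each library the ratio of *BST2* to *IFITM1* was 0.796, 0.844 and 0.997 over control replicates 1 to 3. It was 1.39, 1.26 and 1.01 over MDM4 replicates 1 to 3, so the order held in every library, in replicate 3 only narrowly.

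**Figure D1:**
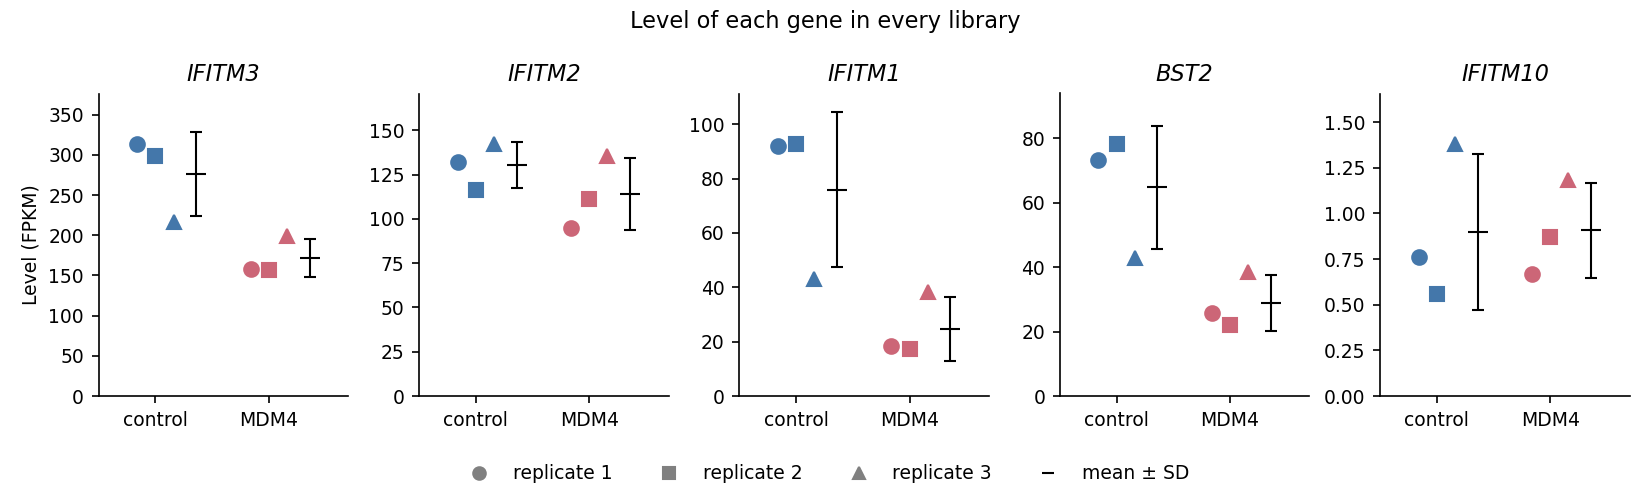
FPKM of *IFITM1*, *IFITM2*, *IFITM3*, *BST2* and *IFITM10* in each of the 6 libraries, 1 panel a gene with a linear axis from 0. Each point is a library, its shape gives the replicate number, and the line with whiskers is the group mean ± SD (n = 3). *IFITM1*, *IFITM3* and *BST2* lie lower in all MDM4 libraries than in any control library, and for these genes replicate 3 of either group lies between the others.

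*IFITM1*, the member at the cell surface, showed the widest range. It was at 92.0, 92.7 and 43.1 FPKM over control replicates 1 to 3, from 2952, 2371 and 1243 reads. In MDM4 replicates 1 to 3 it was at 18.5, 17.4 and 38.4 FPKM, from 484, 434 and 909 reads. Replicates 1 and 2 of either group were close to each other, whereas replicate 3 was low in the control and high in the MDM4 group. The groups did not overlap, and the lowest control library was 1.12-fold above the highest MDM4 library, with exact 95% counting intervals of 40.7 to 45.5 and 35.9 to 40.9 FPKM that overlap slightly. Such intervals cover counting error only. The control library was 4.96-fold, 5.32-fold and 1.12-fold above the MDM4 library of the same number in replicates 1 to 3. Over all 6 libraries the log2 difference, MDM4 minus control on log2(FPKM + 0.1), was -1.63 (standard error 0.38), and over replicates 1 and 2 alone it was -2.35 (0.076). Standard errors here and below are from limma, which also draws on the spread of the other genes. Those over replicates 1 and 2 cover only how close these libraries were, after replicate 3 was set aside with its values known.

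*BST2*, the tether of budding particles, followed the same order of libraries from another chromosome. It was at 73.3, 78.3 and 43.0 FPKM over control replicates 1 to 3, from 3340, 2843 and 1762 reads. In MDM4 replicates 1 to 3 it was at 25.8, 21.9 and 38.6 FPKM, from 956, 776 and 1301 reads. Again the groups did not overlap, and again replicate 3 was the lowest of the control and the highest of the MDM4 libraries. Between these 2 libraries the counting intervals, 41.0 to 45.0 and 36.6 to 40.8 FPKM, were apart by little. Control was 2.84-fold, 3.57-fold and 1.11-fold above MDM4 by replicate number. The log2 difference was -1.16 (standard error 0.27) over all 6 libraries and -1.67 (0.090) over replicates 1 and 2 alone.

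*IFITM3*, the endosomal member best known for restricting influenza virus, differed less in fold and most in FPKM. It was at 314, 299 and 217 FPKM over control replicates 1 to 3, from 9369, 7111 and 5831 reads. In MDM4 replicates 1 to 3 it was at 158, 157 and 199 FPKM, from 3853, 3639 and 4388 reads. The groups did not overlap, with the same place for replicate 3, and its counting intervals of 211 to 223 FPKM in control and 193 to 205 FPKM with MDM4 were apart. Control was 1.98-fold, 1.90-fold and 1.09-fold above MDM4 by number. The log2 difference was -0.68 (standard error 0.15) over all 6 libraries and -0.96 (0.060) over replicates 1 and 2 alone.

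*IFITM2*, the nearest relative of *IFITM3* in sequence and also an endosomal protein, had groups that overlapped. It was at 132, 116 and 142 FPKM over control replicates 1 to 3, from 4308, 3031 and 4180 reads. In MDM4 replicates 1 to 3 it was at 95.0, 111 and 135 FPKM, from 2525, 2812 and 3267 reads. Replicate 3 was here the highest library of both groups. Control was 1.39-fold, 1.05-fold and 1.05-fold above MDM4 by number, and the log2 difference was -0.20 (standard error 0.13) over all 6 libraries and -0.27 (0.087) over replicates 1 and 2 alone.

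*IFITM10* was close to the limit of the filter. It was at 0.759, 0.560 and 1.38 FPKM over control replicates 1 to 3, from 126, 74 and 206 reads, and at 0.666, 0.870 and 1.18 FPKM over MDM4 replicates 1 to 3, from 90, 112 and 145 reads. The groups overlapped, replicate 3 was the highest of either group, and the direction by number was not the same: the log2 difference was -0.17, 0.56 and -0.21 in replicates 1 to 3 and 0.06 (standard error 0.35) over all. *COL1A1*, a collagen of fibroblasts, was also highest in replicate 3 of both groups, at 3.71 and 3.80 FPKM against 1.60 to 2.33 FPKM elsewhere. So was *STAT2*, at 12.8 FPKM in replicate 3 of both groups. The fibroblast markers *COL1A2*, *COL3A1*, *DCN* and *LUM*, listed with *COL1A1*, were at most at 0.0543 FPKM in any library. The part of any of these genes in the level of *IFITM10* was not tested. *IFITM5*, which is not among the 5 genes, had 0 reads in 5 libraries and 1 read, 0.0411 FPKM, in MDM4 replicate 3.

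Of the 5 genes, 3 (*IFITM1*, *IFITM3* and *BST2*) had all MDM4 libraries below all control libraries, as had 484 (3.76%) of the 12884 genes tested. None had all MDM4 libraries above all control libraries, as 399 (3.1%) of all tested genes had. With limma over all 6 libraries, a differentially expressed gene (DEG) being one with an adjusted p under 0.05 and a log2 fold change above 1 in size, 0 of the 5 and 0 (0%) of the 12884 genes were DEGs, while 3 of the 5 and 222 of the 12884 had an unadjusted p under 0.05. This fit did not call the plasmid gene *MDM4* either, at a log2 difference of 4.33 and an adjusted p of 0.161. A gene not called by it may therefore still differ. When the replicate number entered limma as a block, 2 genes (0.0155%) were DEGs, 1 of them lower with MDM4 (0.00776%), and neither was among the 5. The higher one was *MDM4* itself, with an adjusted p of 4.77e-05. With voom on the reads behind the FPKM values and the same block, 15 genes (0.116%) were DEGs, and *IFITM1* and *BST2* were 2 of the 13 (0.101%) lower with MDM4. Over replicates 1 and 2 alone, 37 of 12746 genes (0.29%) were DEGs, and the same 2 genes were among the 36 (0.282%) lower with MDM4. *IFITM3* missed the limit on the fold and not that on the p in 3 fits: in this fit, in voom with the block and without control replicate 3 its adjusted p was under 0.05, with log2 differences of -0.96, -0.69 and -0.84. Without control replicate 3, 16 genes (0.125%) were DEGs and 15 (0.117%) were lower, none of them among the 5, and without MDM4 replicate 3 there was 1 DEG (0.00779%), again not among them. In single pairs of libraries, *IFITM1* and *BST2* were lower with MDM4 by over 1 on the log2 scale in replicate 1, as were 85 genes (0.66%), and in replicate 2, as were 70 (0.543%), and 0 of the 5 were in replicate 3, as 20 genes (0.155%) were. As the genes were proposed with this contrast known, these counts describe them and test nothing. The median log2 difference of all tested genes was -0.02, 0.0016 and -0.0043 in replicates 1 to 3, so a general shift between the libraries of a pair was small beside the differences of *IFITM1*, *IFITM3* and *BST2* in replicates 1 and 2.

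**Figure D2:**
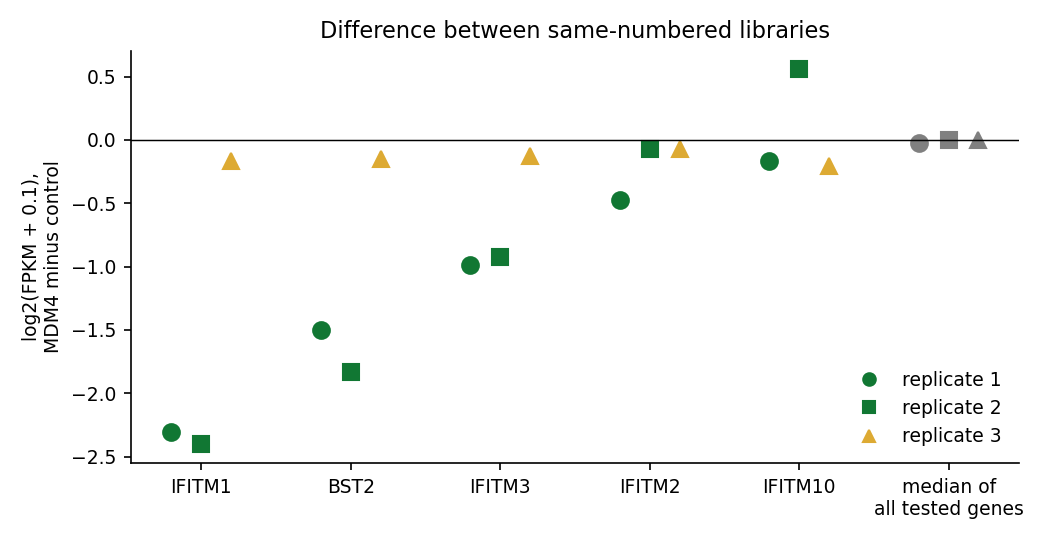
Log2 difference, MDM4 minus control on log2(FPKM + 0.1), of each of the 5 genes by replicate number, beside the median of all tested genes in grey. Each point stands for 1 library a group and has no error, and its shape and colour give the replicate. *IFITM1*, *BST2* and *IFITM3* lie between -2.40 and -0.93 in replicates 1 and 2 and between -0.17 and -0.13 in replicate 3.

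The difference between the groups was thus mostly one of replicates 1 and 2. Control replicate 3 held 0.466-fold of the mean of control replicates 1 and 2 for *IFITM1*, 0.567-fold for *BST2* and 0.709-fold for *IFITM3*. MDM4 replicate 3 held 2.13-fold, 1.62-fold and 1.26-fold of the mean of MDM4 replicates 1 and 2. Replicate 3 therefore stood apart in both groups and in opposite directions, so that its libraries met near the middle. For *IFITM2* the same ratios were 1.15-fold and 1.32-fold, and for *IFITM10* 2.09-fold and 1.54-fold, so that here both libraries of replicate 3 were higher. On the log2 scale, the difference of replicate 3 minus that of replicates 1 and 2 was 2.19 for *IFITM1*, 1.51 for *BST2*, 0.83 for *IFITM3*, 0.20 for *IFITM2* and -0.40 for *IFITM10*. A limma term for this difference was called (adjusted p under 0.05) for 25 genes (0.194%), *IFITM1*, *BST2* and *IFITM3* among them. With a pseudocount of 1 it was called for 27 genes (0.21%), with eBayes without trend for 5 (0.0388%), of which *IFITM1* was the single one among the 5 described, and without a filter for 0 (0%). Replicate 3 has 1 library a group, so the spread in this term comes from replicates 1 and 2 alone, and the term was set with the values by replicate known. Its calls describe these libraries and do not test whether another replicate would differ in the same way. The plasmid gene, *MDM4*, was at 56.3 FPKM in MDM4 replicate 3 against 188 and 185 FPKM in replicates 1 and 2, and its part in these values was not tested.

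**Figure D3:**
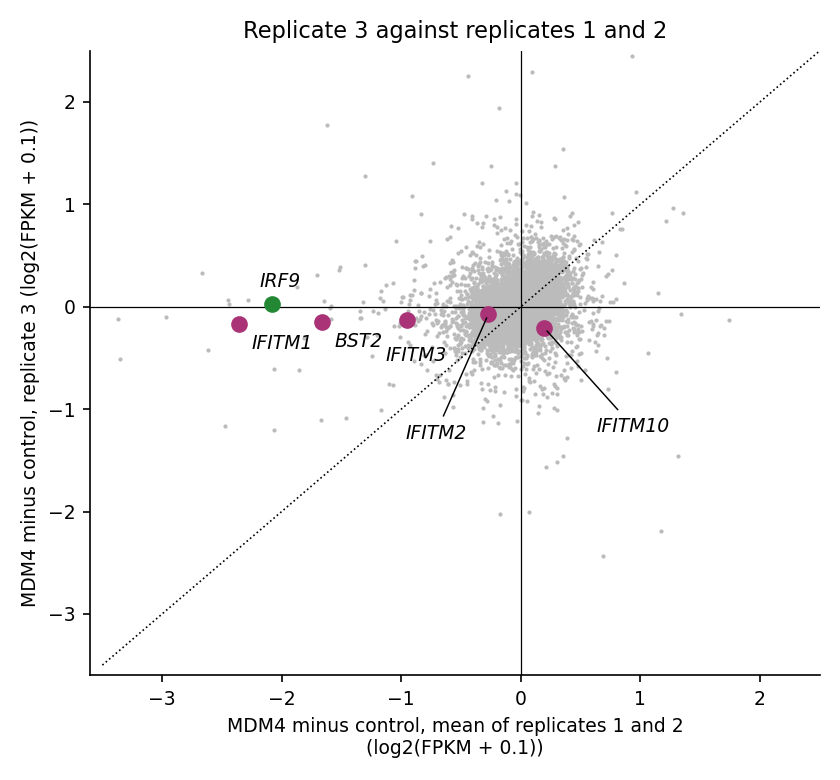
Log2 difference, MDM4 minus control on log2(FPKM + 0.1), in replicate 3 (y) against the mean of replicates 1 and 2 (x), with 12879 tested genes as grey points, the 5 genes in purple, *IRF9* in green, and the dotted line marking equal differences. *MDM4* is left out and 4 genes lie outside the axes. *IFITM1*, *BST2* and *IFITM3* lie between -2.35 and -0.96 on x and near 0 on y.

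The make-up of the IFITM pool moved with these differences. *IFITM1*, *IFITM2* and *IFITM3* summed to 538, 508 and 402 FPKM over control replicates 1 to 3 and to 272, 285 and 373 FPKM over MDM4 replicates 1 to 3. *IFITM1* made up 17.1%, 18.3% and 10.7% of this sum in the control and 6.82%, 6.11% and 10.3% in the MDM4 libraries. *IFITM2* made up 24.5%, 22.9% and 35.4% in the control and 34.9%, 38.9% and 36.3% with MDM4. *IFITM3* kept the largest part, at 53.4% to 58.8% in the 6 libraries. The share of *IFITM1* was therefore lower, and that of *IFITM2* higher, in MDM4 replicates 1 and 2 than in their controls, while in replicate 3 each share was close to that of its control. The ratio of *BST2* to *IFITM1* was 0.796, 0.844 and 0.997 in control and 1.39, 1.26 and 1.01 in MDM4 replicates 1 to 3, so *IFITM1* differed by more than *BST2* did.

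**Figure D4:**
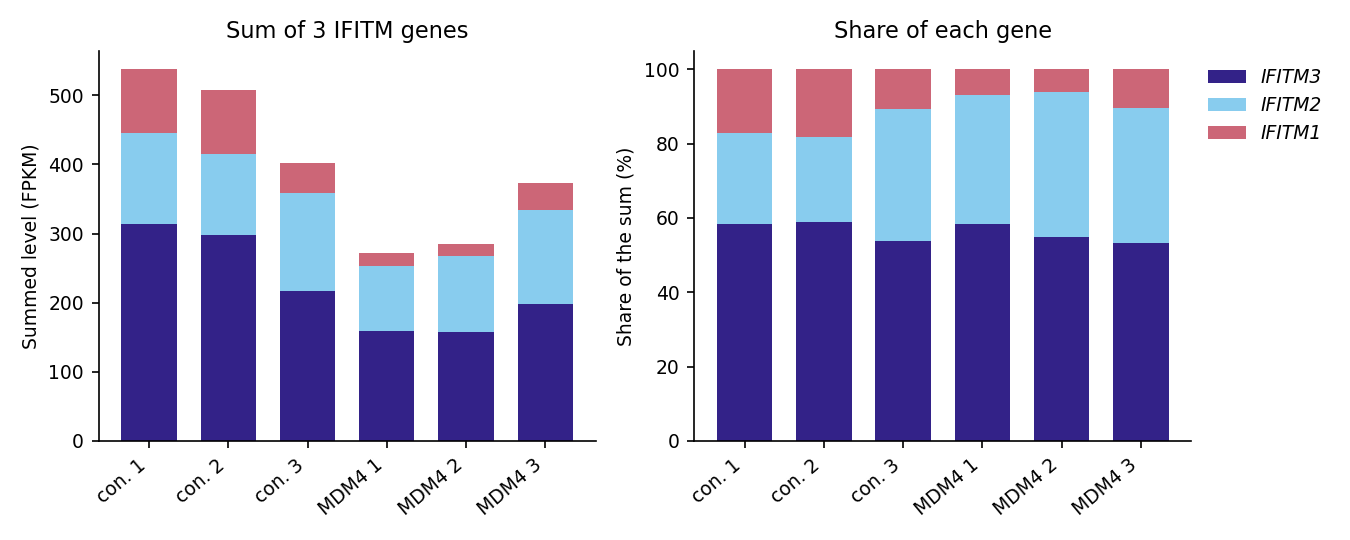
Summed FPKM of *IFITM1*, *IFITM2* and *IFITM3* in each library as stacked bars from 0 (left), and each gene's share of that sum in percent (right), with each gene a colour. The bars are tallest in control replicates 1 and 2 (538 and 508 FPKM), shortest in MDM4 replicates 1 and 2 (272 and 285 FPKM) and near each other in replicate 3.

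Across the 6 libraries, *IFITM1*, *IFITM3* and *BST2* followed one profile. Pearson's r of log2(FPKM + 0.1) was 0.996 between *IFITM1* and *BST2*, 0.993 between *IFITM1* and *IFITM3* and 0.990 between *IFITM3* and *BST2*. It was 0.55 between *IFITM1* and *IFITM2*, 0.69 between *IFITM2* and *IFITM10*, and -0.20 between *IFITM1* and *IFITM10*. The 6 points share their libraries and mostly the split of replicates 1 and 2, so these values are a description. Among the 12883 other genes past the filter, those most like *IFITM1* were *NMI* (0.996), *BST2*, *ATF3* (0.993), *IFITM3* and *CXCL3* (0.986), and those most like *BST2* were *IFITM1*, *ATF3* (0.995), *NMI* (0.995), *IFITM3* and *OASL* (0.989). NMI is an interferon-induced signalling protein, ATF3 a stress-induced transcription factor, CXCL3 a chemokine for neutrophils and OASL an interferon-induced relative of the oligoadenylate synthetases. With 6 points and so many genes a high r is common, and the closest gene reached 0.997 for *IFITM2* and 0.997 for *IFITM10* as well.

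A like profile was not a like size. *NMI* was at 9.81, 10.05 and 8.96 FPKM in control and 7.87, 7.73 and 8.80 FPKM over MDM4 replicates 1 to 3. *ATF3* was at 9.17, 9.49 and 7.51 FPKM in control and 5.64, 5.39 and 6.70 FPKM with MDM4. Both kept the order of *IFITM1* over a narrow range. *OASL* ranged more widely, at 5.68, 5.57 and 2.72 FPKM in control and 1.93, 1.69 and 2.73 FPKM with MDM4, with replicate 3 at nearly the same level in both groups. *CXCL3* was at 14.7, 15.1 and 10.7 FPKM in control and 8.13, 8.20 and 9.69 FPKM with MDM4, with replicate 3 again between the others.

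Upstream of these genes, the receptors and the signalling factors of interferon were listed as 19 genes, all of them past the filter. Over all 6 libraries 0 of the 19 were DEGs in limma, with 4 at an unadjusted p under 0.05, as were 222 of all 12884 genes. Their median log2 difference as a list was -0.10 with 13 of 19 negative, against -0.0091 and 52.8% for all tested genes. Over replicates 1 and 2 alone, 3 of the 19 were DEGs lower with MDM4 (*IRF9*, *USP18* and *IRF7*) and 0 were higher, where 36 (0.282%) of all genes tested were lower and 1 was higher. The median of the list was -0.16, -0.12 and 0.00056 in replicates 1 to 3. *IRF9*, a DNA-binding part of the complex named above, was at 19.6, 17.2 and 6.98 FPKM in control and 3.80, 4.76 and 7.12 FPKM over MDM4 replicates 1 to 3. Replicate 3 of the MDM4 group was thus just above its control, and the groups overlapped. The log2 difference of *IRF9* over all 6 libraries was -1.38 (standard error 0.40, adjusted p = 0.9999 from limma, or 0.249 with the replicate block). Over replicates 1 and 2, which leaves out the libraries known to differ least, it was -2.08 (standard error 0.13).

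*STAT2* was at 8.85, 7.97 and 12.8 FPKM in control and 7.33, 7.50 and 12.8 FPKM with MDM4, and its log2 difference over replicates 1 and 2 was -0.18. *IRF9* thus differed by more than *STAT2* did. *IRF7*, which induces interferon genes, had a log2 difference of -1.19 and *USP18*, which removes ISG15 and holds back the interferon receptor, one of -1.24 over replicates 1 and 2. The term for replicate 3 was called for *IRF9* (2.11) and no other of the 19.

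**Figure D5:**
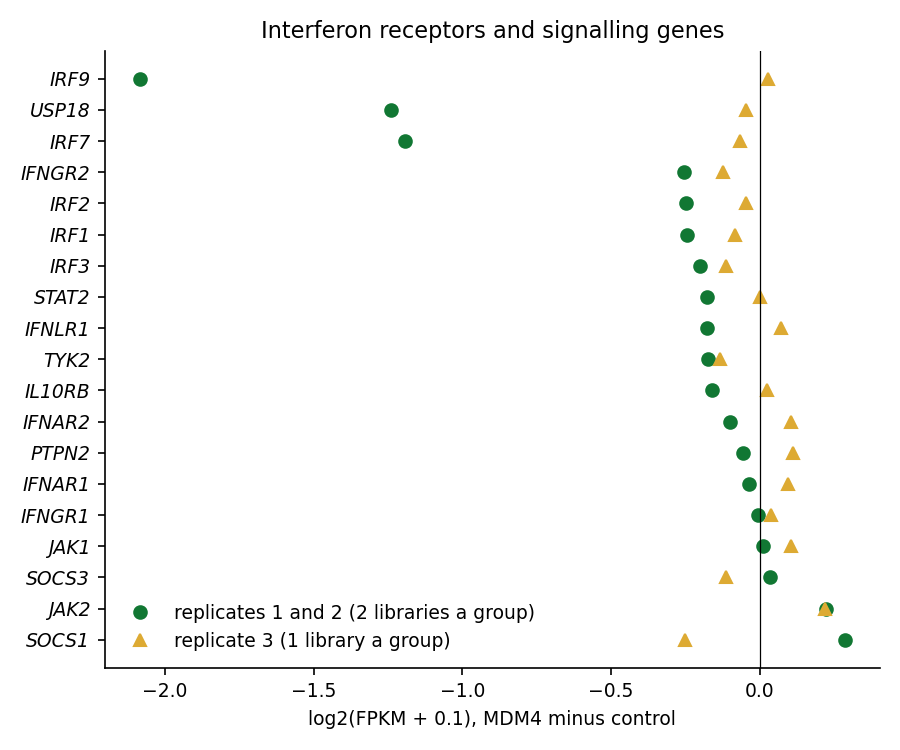
Log2 difference, MDM4 minus control on log2(FPKM + 0.1), of 19 interferon receptor and signalling genes, one gene a row, over replicates 1 and 2 (circles, 2 libraries a group) and in replicate 3 (triangles, 1 library a group). *IRF9* (-2.08), *USP18* (-1.24) and *IRF7* (-1.19) stand apart on the left over replicates 1 and 2, and the triangles of these 3 genes lie between -0.07 and 0.03.

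Of the CD225 family, to which the IFITM proteins belong by their shared membrane domain, 12 genes were listed and 7 were past the filter. Apart from the IFITM genes these were *PRRT1*, *PRRT2* and *TMEM91*, between 0.866 and 2.15 FPKM, and *TMEM233* and *SYNDIG1* were at 0 in all libraries. *PRRT2*, a synaptic protein, had a log2 difference of 0.24 over all 6 libraries. Over replicates 1 and 2 alone *IFITM1* was the 1 DEG of the 7, where 37 (0.29%) of all genes tested were DEGs.

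Of 16 other antiviral factors that act at membranes, 11 were past the filter, and 0 were DEGs in limma over all 6 libraries. An unadjusted p under 0.05 was found for 4 of the 11 and for 222 of all 12884 genes. Over replicates 1 and 2 alone, 36 (0.282%) of all genes tested were DEGs lower with MDM4 and 1 was higher. Among the 11, 1 was a DEG lower with MDM4 and 0 were higher. This was *PLSCR1*, a phospholipid scramblase induced by interferon, at 23.8, 27.6 and 11.9 FPKM in control and 10.1, 10.3 and 12.3 FPKM over MDM4 replicates 1 to 3, with a log2 difference of -1.32 over replicates 1 and 2 and a called replicate 3 term of 1.37. *LGALS3BP*, a secreted glycoprotein that binds galectins, had a log2 difference of -0.35 over all 6 libraries, and *MARCH1*, a ubiquitin ligase of membrane proteins, one of 0.29. The median of the 11 was -0.03.

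The machinery that modifies and carries these proteins showed 0 DEGs in each list in limma, both over all 6 libraries, where 0 genes of these lists had an unadjusted p under 0.05, and over replicates 1 and 2 alone, where 1, 1, 2 and 3 genes had one in the 4 lists that follow, as had 1050 of all 12746 genes. With the replicate block 3, 2, 3 and 4 had one, as had 1624 of all 12884 genes, and again 0 were DEGs. Among 16 enzymes and partners of IFITM proteins, all past the filter, the differences furthest from 0 over all 6 libraries were those of the palmitoyltransferase gene *ZDHHC1* (0.29), of *CAV1* (0.26), which encodes the coat protein of caveolae, and of the methyltransferase gene *SETD7* (0.19), and the median was 0.0086. Of 23 genes that make and attach the GPI anchor, which tetherin needs, 22 were past the filter, with a median of -0.03 and *PGAP1* (0.22), *PGAP3* (-0.22) and *PIGQ* (-0.20) furthest from 0. Of 11 partners of tetherin 10 were past the filter, with a median of 0.0091, and *SYK* (-0.26), a kinase that docks on its tail, *ARHGAP44* (0.15) and *EZR* (0.15) were furthest from 0. For 12 genes of endosome and lysosome membranes, where IFITM2 and IFITM3 reside, the median was -0.01, with *EEA1* (0.27), *TFRC* (0.19) and *CD82* (-0.16) furthest from 0. The 7 epithelial markers past the filter had a median of -0.09 with 6 of 7 negative, against -0.0091 and 52.8% for all tested genes, and 0 DEGs. An unadjusted p under 0.05 was found for 1 of 7 over all 6 libraries, 4 with the block in limma and 6 with the block in voom. Of all 12884 genes, 222, 1624 and 1825 had one in the same fits. The part of the epithelial markers in the other values was not tested. Among them, *VIL1*, which encodes the microvillus protein villin, had a log2 difference of -0.54, *CDX2*, an intestinal transcription factor, one of -0.22 and *CDH1*, which encodes E-cadherin, one of 0.14.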

How the data were processed

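RNA was sequenced from SW480 cells in 3 control and 3 MDM4 libraries, grouped by the labels, with columns matched to samples by letter and number. The authors deposited FPKM for 19225 symbols, of which 2036 were at 0 throughout. Aligner, build, counting and test are not given in the sources used here, and the build of the coordinates is that of GENCODE. FPKM steps gave whole reads (tolerance 0.01) for 17189 of 17189 genes above 0 (100%), used for depth, intervals and voom. FPKM divides by length and library total, so that a level is relative to the other RNA.

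In R 4.3.3, limma 3.58.1 (lmFit, eBayes with trend, no block) took log2(FPKM + 0.1) of the 12884 genes whose mean reached 0.5 FPKM, with Benjamini-Hochberg adjustment over all of them, after the fit was tested on simulated data. Tables and plots were made with Python 3.11.15, numpy 2.4.6, pandas 2.3.3, scipy 1.17.1 and matplotlib 3.10.9. The members and lists were chosen with earlier results of these data known, as were the fits that treat replicate 3 apart. Named genes were the 5 members, *MDM4*, *STAT2*, *IRF9*, up to 3 genes per list with the largest absolute log2 difference over all libraries, and the 5 genes most like *IFITM1* and *BST2* each. One further gene of the rule is not reported here. *IRF7*, *USP18*, *COL1A1*, *CD68*, *HLA-DRA* and *CD14* fall under this rule too. *IFITM5*, *PRRT1*, *TMEM91*, *TMEM233*, *SYNDIG1*, *KRT8*, *KRT18*, *KRT19*, *KRT20*, *COL1A2*, *COL3A1*, *DCN*, *LUM*, *MS4A1* and *PTPRC* were named outside it, after their values were seen.

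Pairing by replicate number was checked by correlating deviations from the group means over 12884 genes. Same-numbered libraries correlated at 0.46, 0.45 and 0.78, replicates 1 and 2 also across numbers at 0.46 and 0.44, and replicate 3 with the others at -0.56 to -0.62. Deviations within a group cancel out, so a replicate 3 that stands apart in both groups also sets the signs of the other values. The check thus shows that the replicate 3 libraries deviate together. It does not pair numbers 1 and 2, since these were as close across numbers as within them. Alternatives were other pseudocounts, filters and scalings, the replicate block, eBayes without trend, voom, and libraries left out.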

Additional observations from a re-analysis of the deposited data

How the results depend on the processing

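DEGs over all 6 libraries numbered 0 in limma on log2 FPKM, with 222 genes at an unadjusted p under 0.05, and remained 0 with pseudocounts of 0.5 or 1, no filter, a filter of 1 FPKM, TPM scaling, quantile normalization, eBayes without trend, and voom without a block. The plasmid gene *MDM4* was thus not among the DEGs of these fits. With the replicate block there were 2, and with voom and the block 15, of which 2 were among the 5 genes described (*IFITM1* and *BST2*). Over replicates 1 and 2 alone there were 37, with the same 2 genes among them. Leaving out 1 library gave 0 to 16 DEGs, the most without control replicate 3, and 0 of the 5 genes each time. The replicate block changed no call among the 5 genes in limma. The replicate 3 term, called for 25 genes, was called for 0 without a filter (840 at an unadjusted p under 0.05), so that *IFITM1*, *BST2* and *IFITM3* lost it, for 5 with eBayes without trend, and for 23 to 27 under the other alternatives. The cause of these changes was not tested. The fit over replicates 1 and 2 has fewer libraries and the fit without a filter tests more genes, and the part of either was not tested. For *IFITM1* the replicate 3 term was 2.19 (standard error 0.079) without a filter and 2.19 (0.132) with it.

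Leaving out each library in turn, the log2 difference ranged from -1.99 to -1.42 for *IFITM1*, -1.43 to -0.99 for *BST2*, -0.84 to -0.58 for *IFITM3*, -0.34 to -0.08 for *IFITM2* and -0.20 to 0.39 for *IFITM10*, the single one to change sign. *IFITM10* rests on 74 to 206 reads a library. Its counting interval was 0.439 to 0.703 FPKM in control replicate 2 and 1.198 to 1.58 FPKM in control replicate 3, so its libraries were further apart than counting error.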
